A study of Mus musculus with 4 samples.

Results

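The genes examined were Msr1, Marco, Cd36, Scarb1, Stab1, Lrp1, Mertk, Axl, Gas6 and Mfge8, which encode receptors for modified lipoproteins, debris and dying cells and the secreted proteins that bridge dying cells to such receptors. They were taken by symbol and made up 10 of the 55367 gene rows in each of 4 mouse libraries. All 10 had at least 1 count in every library, and all 10 passed the filter on low counts that left 11837 genes for testing.

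Scavenger receptors are cell surface proteins that bind altered self material. The class A receptors Msr1 and Marco carry a collagen-like stalk and bind polyanionic ligands, whereas the class B receptors Cd36 and Scarb1 bind lipoproteins and fatty acids. Efferocytosis is the engulfment of apoptotic cells, which expose phosphatidylserine. Gas6 bridges this lipid to the tyrosine kinase receptors Mertk and Axl, and Mfge8 bridges it to alpha v integrins on the phagocyte. Macrophages are known for expressing many of these genes, in tumors as in other tissues.

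The libraries were made from polyadenylated RNA of B16-F10 tumors, which are grown from a mouse melanoma line, after a sort for cells that carried CD45.2 and CD8. By title there were 2 WT and 2 KO libraries. The design text of the series names Satb1 F/F mice with ThPOK-cre, which is active in the CD4 T cell lineage, and with E8I-cre, which is active in mature CD8 T cells. Which Cre the libraries labeled KO carried, the age and sex of the mice, and the number of animals behind each library are not stated in the labels. Nothing in the labels says that the libraries came from separate animals, so p-values measure only the spread between these libraries.

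Counts on genes ranged from 4017875 to 5382915 per library. For Satb1, the targeted gene, 7 and 5 counts were found in WT 1 and WT 2, and 131 and 55 in KO 1 and KO 2, against the label. Counts on the 10 T cell markers described below were also higher in KO, at 304 and 516 in WT and 11287 and 7099 in KO. Their part in the Satb1 counts was not tested. Every direction below is that of the libraries as labeled. Xist had 435 and 216 counts in WT 1 and WT 2 and 0 and 3 in KO 1 and KO 2, and Ddx3y, on the Y chromosome, had 0 and 0 against 188 and 81, so that sex and group cannot be told apart. The labeled sort was checked against markers. The 12 macrophage or monocyte markers summed to 28809 and 36553 normalized CPM (counts scaled to a common library total) in WT 1 and WT 2 and to 18056 and 22255 CPM in KO 1 and KO 2, and none of the 12 was at 0 in any library. The 10 T cell markers, Cd8a and Cd3e among them, summed to 90.9 and 127 CPM in WT and to 2137 and 1233 CPM in KO. In every library the macrophage or monocyte markers thus exceeded the T cell markers, which goes against reading the labeled CD45.2 and CD8 sort as mainly T cells. The 7 melanoma markers summed to 261 and 267 CPM in WT and 1965 and 1171 CPM in KO, and the 7 fibroblast markers to 9.27 and 3.20 CPM in WT, 1260 CPM in KO 1 and 170 CPM in KO 2, with Pdgfra, Pdgfrb, Dcn and Lum at 0 in both WT libraries. The 9 dendritic cell markers summed to 311 and 366 CPM in WT and 584 and 518 CPM in KO, and the 6 endothelial markers to between 27.8 and 57.1 CPM in all libraries. In such bulk samples, fewer cells of a type and less RNA per cell cannot be told apart.

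None of the 10 genes was called different between KO and WT. By edgeR's quasi-likelihood test, with Benjamini-Hochberg adjustment over all genes and a threshold of 0.05, 0 of 10 passed, beside 0.574% of the 11837 genes tested (0.549% higher and 0.0253% lower in KO). The adjusted p-values of the 10 ran from 0.209 to 0.982. At an unadjusted p under 0.05 there were 2 of 10, Lrp1 and Mfge8, against 13.7% of all genes, and DESeq2 gave 0 calls after adjustment and 2 before it, against 14.4% of all genes at an unadjusted p under 0.05. The fitted log2 fold change was below 0 for 7 of 10 genes (47.4% of all genes), with a median of -0.36 beside 0.05 over all genes tested, and of these 7 Scarb1, Axl and Gas6 turned above 0 with macrophage or monocyte counts as the scale and Gas6 also with library totals only. Without KO 1, 2 of 10 (Stab1 and Lrp1) were below 0, without WT 2 there were 5, and without KO 2 there were 8. On normalized CPM the 2 groups did not overlap for 4 of the 10 genes, against 47.9% of all genes. Of these, Msr1 and Mfge8 were higher in both libraries labeled KO (25.3% of all genes) and Lrp1 and Stab1 were lower (22.6% of all genes).

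**Figure D1:**
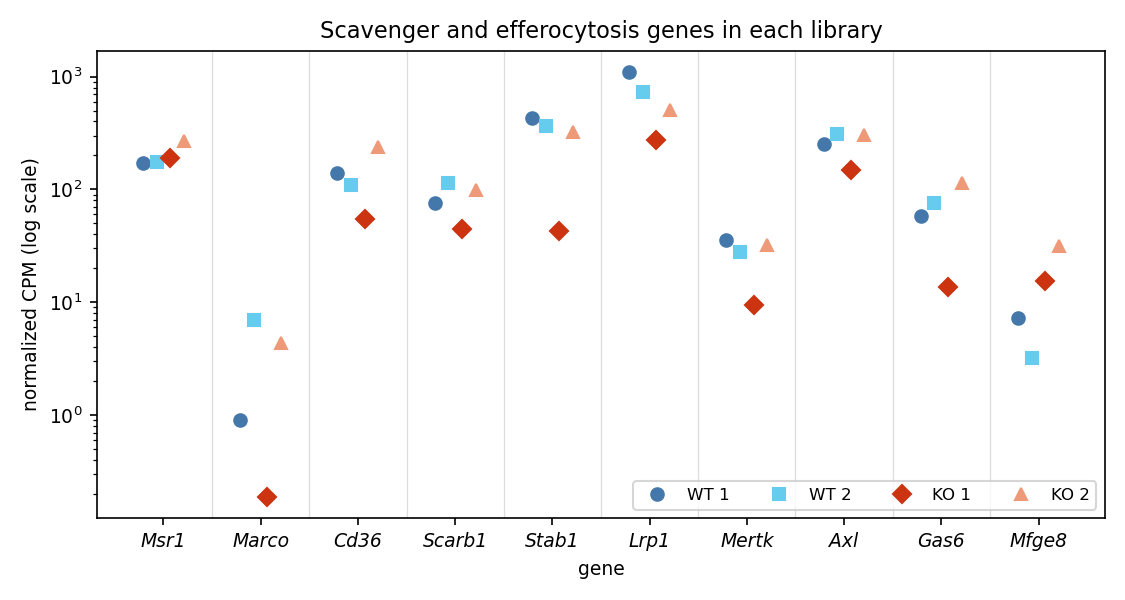
Normalized CPM of the 10 genes on a log scale, 1 point for each of the 4 libraries. KO 1 has the lowest point for 8 of the 10 genes, and both KO points lie above both WT points for Msr1 and Mfge8 only.

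Per kilobase of exon, the scale on which levels of different genes can be compared, Axl had the highest mean over the 4 libraries, at 50.6 CPM per kilobase. It was followed by Cd36 at 37.5, Lrp1 at 36.7, Msr1 at 31.7, Stab1 at 28.1 and Gas6 at 25.6 CPM per kilobase. Scarb1, Mertk, Mfge8 and Marco were lower, with means of 9.80, 6.06, 3.04 and 1.60 CPM per kilobase. Neighbors in this order overlapped in their ranges over the libraries, and most of the order was not resolved. Within every library Gas6 exceeded Scarb1, in KO 1 only by 5.35 against 5.21 CPM per kilobase, and Scarb1 exceeded Mertk. The order of the other neighbors changed between libraries. On the scale per kilobase Axl exceeded Mertk in every library, by 6.15 to 13.6 times. Msr1 exceeded Marco by 7.66 times in WT 2 and 18.8 times in KO 2, and no ratio is given for WT 1 and KO 1, where Marco had 3 counts and 1 count.

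Of the class A receptors, Msr1 (chromosome 8, 39581685 to 39642673, minus strand, GRCm38/mm10) had 574 and 707 counts in WT 1 and WT 2 and 996 and 1549 in KO 1 and KO 2. In normalized CPM this was 172 and 174 in WT against 189 and 269 in KO, so the groups did not overlap but KO 1 lay close to WT. The log2 fold change was 0.40 with a standard error (SE) of 0.44 (edgeR adjusted p = 0.720), and it was 0.64 without KO 1 and 0.12 without KO 2. Marco (chromosome 1, 120474538 to 120505024, minus strand), a receptor for bacteria and particles on subsets of macrophages, had 3 and 28 counts in WT and 1 and 25 in KO. The counts of WT 1 and KO 1 were at or under the floor of 3 counts, and the gene passed the filter through WT 2 and KO 2, 1 library of each group. The log2 fold change, -0.78, carried an SE of 1.28 (edgeR adjusted p = 0.821).

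Of the class B receptors, Cd36 (chromosome 5, 17781690 to 17888801, minus strand), which takes up fatty acids and oxidized lipoproteins, had 139 and 110 CPM in WT, 54.5 CPM in KO 1 and 235 CPM in KO 2. The libraries labeled KO lay on either side of both WT libraries, and the log2 fold change was 0.22 with an SE of 0.63 (edgeR adjusted p = 0.907). Its direction turned with the setting, at 0.92 without KO 1, -1.19 without KO 2 and -0.12 with the replicate block. Scarb1 (chromosome 5, 125277087 to 125341094, minus strand), the receptor for high density lipoprotein, had 75.4 and 115 CPM in WT and 44.3 and 98.8 CPM in KO. These groups overlapped as well, and the log2 fold change was -0.41 with an SE of 0.50 (edgeR adjusted p = 0.755).

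Stab1 and Lrp1 were the genes lower in both libraries labeled KO. Stab1 (chromosome 14, 31139013 to 31168641, minus strand) encodes stabilin-1, which clears matrix fragments and modified lipoproteins, and Lrp1 (chromosome 10, 127538161 to 127621148, minus strand) a very large endocytic receptor that also takes part in the uptake of dying cells. Stab1 shares 1.09% of its exonic bases with Nt5dc2 on the other strand, whose reads cannot be told apart without strand. Stab1 had 1424 and 1483 counts in WT, 228 in KO 1 and 1854 in KO 2, or 426 and 365 CPM against 43.2 and 322 CPM. Nearly all of its difference lay in KO 1. The log2 fold change was -1.12 (SE 0.77, edgeR adjusted p = 0.545). It became -0.30 without KO 1. Without KO 2, which leaves KO 1 alone in its group and assumes that it varies as the WT libraries do, it became -3.20 and passed the threshold (edgeR adjusted p = 0.00492). The adjusted p ranged from 0.00492 to 0.9999 over the alternatives. Lrp1 had 3672 and 2935 counts in WT and 1448 and 2908 in KO, or 1098 and 723 CPM against 274 and 505 CPM. Both KO libraries lay below both WT libraries, with a log2 fold change of -1.23, an SE of 0.53 and a 95% interval from -2.41 to -0.04 before adjustment (edgeR adjusted p = 0.351). Without KO 2 it was -1.73 with an edgeR adjusted p of 0.0447, where the range over the alternatives was 0.0447 to 0.9999.

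The TAM receptors Mertk and Axl, tyrosine kinases that signal the uptake of dying cells and dampen inflammatory responses, overlapped between the groups. Mertk (chromosome 2, 128698956 to 128802894, plus strand) had 35.6 and 27.8 CPM in WT, 9.47 CPM in KO 1 and 32.1 CPM in KO 2, with a log2 fold change of -0.61 and an SE of 0.61 (edgeR adjusted p = 0.692). Axl (chromosome 7, 25757273 to 25788705, minus strand) had 254 and 311 CPM in WT and 149 and 305 CPM in KO, with a log2 fold change of -0.31 and an SE of 0.49 (edgeR adjusted p = 0.815). For both receptors KO 2 lay within the WT range and KO 1 below it. The 95% intervals of the log2 difference ran from -1.97 to 0.76 for Mertk and from -1.42 to 0.80 for Axl, so that changes within these bounds were not excluded.

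The bridging proteins differed from each other. Gas6 (chromosome 8, 13465374 to 13494490, minus strand), the ligand of Mertk and Axl, had 196 and 305 counts in WT, 72 in KO 1 and 656 in KO 2, or 58.6 and 75.2 CPM against 13.6 and 114 CPM. It was the lowest in KO 1 and the highest in KO 2, and its log2 fold change was -0.07 with an SE of 0.77 (edgeR adjusted p = 0.982). Without KO 2 it was -2.29 and past the threshold (edgeR adjusted p = 0.0252, range 0.0252 to 0.9999 over the alternatives), and without KO 1 it was 0.77. Gas6 shares 1.33% of its exonic bases with Tmem255b on the other strand. Mfge8 (chromosome 7, 79133768 to 79149060, minus strand) had 24 and 13 counts in WT and 81 and 181 in KO, or 7.18 and 3.20 CPM against 15.3 and 31.4 CPM. Both KO libraries lay above both WT libraries, at 5.19 ± 2.81 CPM (SD, n = 2) in WT and 23.4 ± 11.4 CPM (SD, n = 2) in KO. The log2 fold change, 2.18 (SE 0.66), was the furthest from 0 of the 10 but missed the threshold (edgeR adjusted p = 0.209). Mfge8 did pass without a filter on low counts (edgeR adjusted p = 0.0427) and with macrophage or monocyte counts as the scale (edgeR adjusted p = 0.0190), and its adjusted p ranged from 0.0172 to 0.519 over the alternatives. The melanoma, fibroblast, T cell and dendritic cell marker sums given above were also higher in both libraries labeled KO, and their part in the Mfge8 difference was not tested.

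Counts of calls among the 10 genes were set beside the background of each alternative. There were 0 calls with RLE factors (0.549% of all genes), upper-quartile factors (0.507%), library totals only (1.15%), a filter of at least 1 CPM in 2 libraries (0.453%), DESeq2 (3.51%) and the replicate block (1.82%). There were also 0 without WT 1 (0.988%), without WT 2 (2.04%) and without KO 1 (0.862%). Mfge8 was the 1 call with macrophage or monocyte counts as the scale (9.08%), without a filter (2.74%) and with a crossed replicate block (5.47%). Stab1, Lrp1 and Gas6 were the 3 calls without KO 2 (6.91%), each lower in KO 1 than in WT.

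**Figure D2:**
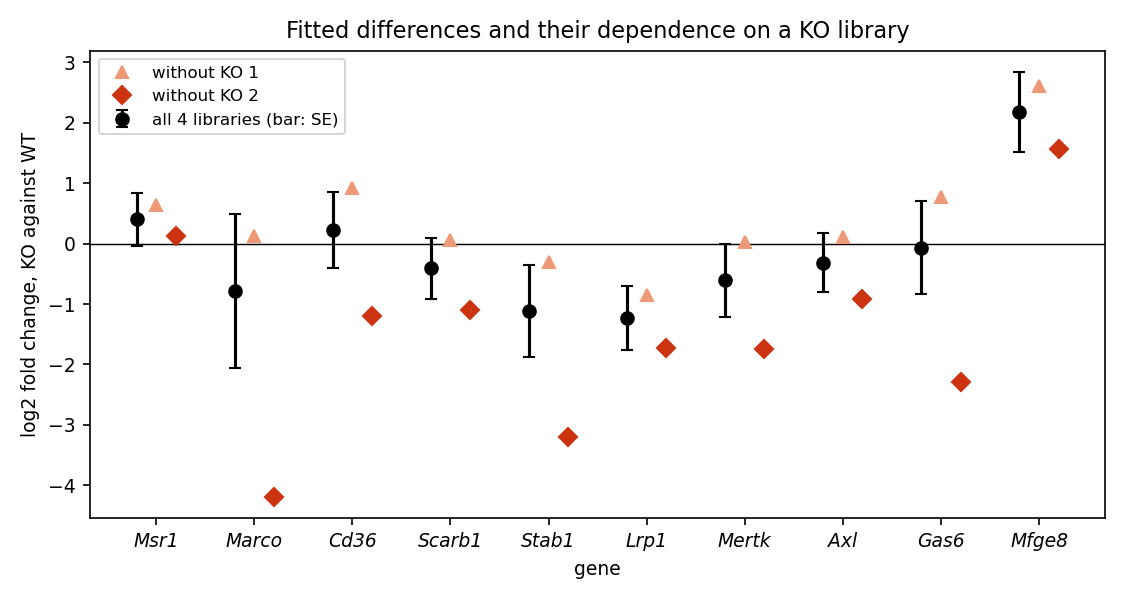
Log2 fold change of KO against WT for the 10 genes, with all 4 libraries (black, bar for the SE), without KO 1 (triangles) and without KO 2 (diamonds). Every diamond lies below its triangle, and Stab1 moves from -0.30 to -3.20.

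The promoters of Lrp1, Stab1 and Mfge8 are shown because these genes had the largest fitted differences. Each line gives the 250 bases before the start of the gene in RefSeq (GRCm38.p6), 5′ to 3′ on the strand of the gene, at chr10:127621149-127621398 (minus strand), chr14:31168642-31168891 (minus strand) and chr7:79149061-79149310 (minus strand), in that order. Capitals mark GAGGAA, a core bound by the myeloid factor PU.1, or GGGCGG, a GC box, on either strand.
Lrp1: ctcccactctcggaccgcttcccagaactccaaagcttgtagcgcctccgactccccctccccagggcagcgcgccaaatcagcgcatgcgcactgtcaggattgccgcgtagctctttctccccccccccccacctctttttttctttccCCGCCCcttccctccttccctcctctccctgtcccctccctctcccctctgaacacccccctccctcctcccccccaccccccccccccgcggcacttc
Stab1: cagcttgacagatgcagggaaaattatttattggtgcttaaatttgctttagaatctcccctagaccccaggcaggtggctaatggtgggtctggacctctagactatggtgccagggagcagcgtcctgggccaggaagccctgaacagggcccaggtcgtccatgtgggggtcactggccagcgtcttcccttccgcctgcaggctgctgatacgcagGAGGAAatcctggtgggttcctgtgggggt
Mfge8: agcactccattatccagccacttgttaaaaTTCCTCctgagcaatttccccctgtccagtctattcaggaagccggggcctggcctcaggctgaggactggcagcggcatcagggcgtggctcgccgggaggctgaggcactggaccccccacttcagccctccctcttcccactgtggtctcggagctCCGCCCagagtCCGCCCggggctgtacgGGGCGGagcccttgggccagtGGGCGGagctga
Such sequences were matched by symbol for 8 of the 10 genes, and Msr1 and Scarb1 were not analysed here. GAGGAA was present in 4 of these 8 promoters (Axl, Marco, Mfge8 and Stab1) and in 23.1% of the 27025 promoters of the same length, and GGGCGG in 6 of 8 (Axl, Cd36, Gas6, Lrp1, Mertk and Mfge8) and in 32.9%. The AP-1 site TGANTCA, the E-box CACGTG and the TATA box TATAAA were found in 0 of 8, and in 6.87%, 6.05% and 13.0% of all. No match overlapped another in the 8 promoters. The GC content was 67.2% for Lrp1, 57.2% for Stab1 and 65.2% for Mfge8, where the median promoter had 52%.

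The libraries labeled KO stood apart from each other for most of the genes. KO 1 was the lowest of the 4 libraries for 8 of the 10 genes, all but Msr1 and Mfge8, against 31.2% of all genes tested. KO 1 had less than 0.5 times the CPM of KO 2 for 8 of the 10, all but Msr1 and Lrp1, against 15.5% of all genes. The level in KO 2 was 8.36 times that in KO 1 for Gas6, 7.46 times for Stab1, 4.32 times for Cd36 and 3.39 times for Mertk, whereas it was 1.43 times for Msr1 and 1.84 times for Lrp1. In sum the 10 genes took 0.189% and 0.182% of gene counts in WT 1 and WT 2, 0.0934% in KO 1 and 0.205% in KO 2. KO 1 was also the library with the highest fibroblast, T cell, melanoma and dendritic cell marker sums and the lowest macrophage or monocyte sum, at 0.811 times that of KO 2. The part of these in the levels of the 10 genes was not tested.

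The make-up of the group of transcripts is given as a description, with no test. Per kilobase, Msr1 made up 10.3% and 11.0% of the summed level of the 10 genes in WT and 26.9% and 14.1% in KO 1 and KO 2. Stab1 made up 15.8% and 14.2% in WT, with 3.80% in KO 1 and 10.4% in KO 2. For both genes KO 1 lay further from WT than KO 2 did. Lrp1 went the other way, with 23.7% and 16.3% in WT, 14.0% in KO 1 and 9.47% in KO 2. Ratios of levels per kilobase within a library do not depend on the scaling. The ratio of Gas6 to Mfge8 was 15.04 and 43.2 in WT and 1.64 and 6.68 in KO. The ratio of Gas6 to its receptor Axl was 0.456 and 0.478 in WT, 0.181 in KO 1 and 0.737 in KO 2, which overlapped.

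The genes were then set against the macrophage or monocyte markers of the same library. Lrp1 had 38.1 and 19.8 counts for each 1000 counts on these markers in WT and 15.2 and 22.7 in KO, and Stab1 had 14.8 and 9.997 in WT and 2.39 and 14.5 in KO. On this scale the groups overlapped for both. Msr1, with 5.96 and 4.77 in WT and 10.4 and 12.1 in KO, and Mfge8, with 0.249 and 0.0876 in WT and 0.849 and 1.41 in KO, were higher in both KO libraries, as were 50.9% of all genes tested, while 0 of the 10 and 3.27% of all genes were lower in both. The scale moved the median log2 fold change of all genes by 0.70, to 0.75. On it the log2 fold change was 1.07 for Msr1, 2.77 for Mfge8, -0.61 for Lrp1 and -0.55 for Stab1, so that Msr1 and Mfge8 were above that median and Lrp1 and Stab1 below it.

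**Figure D3:**
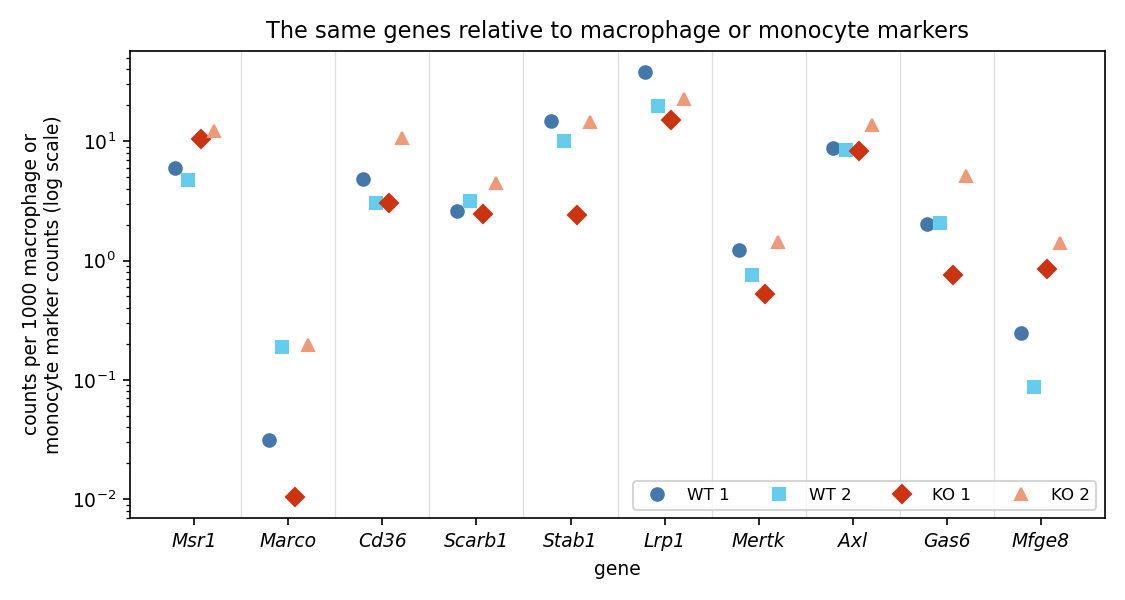
Counts of the 10 genes for each 1000 counts on the 12 macrophage or monocyte markers, on a log scale, 1 point for each library. Msr1 and Mfge8 keep both KO points above both WT points, and Stab1 in KO 1, at 2.39, lies apart from the other libraries.

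Of 49 other genes of scavenging and efferocytosis, 38 passed the filter and 0 passed the threshold in edgeR, where 0.574% of all genes did. The unadjusted p was under 0.05 for 10 of the 38, against 13.7% of all genes. DESeq2 called 3, against 3.51% of all genes, namely Trem2, Abcg1 and Nr1h3, all lower in KO. The median log2 fold change of the 38 was -0.37, with 26 below 0 against 47.4% of all genes. Without overlap, 18 were lower and 4 higher in KO, against 22.6% and 25.3% of all genes, and 2 of the 4, Tyro3 and Scarf2, passed the filter only through the KO libraries, where they were high. KO 1 was the lowest library for 21 of the 38 (31.2% of all genes) and under 0.5 times KO 2 for 13 of them (15.5% of all genes). The 8 genes listed under sterol export and nuclear receptors included Ucp2, a mitochondrial carrier. They had a median of -1.22 and a range from -2.36 to -0.20. Without overlap, 7 of 8 were lower in KO, Nr1h2 by a narrow margin (99.67 CPM in KO 2 against 100.04 CPM in WT 2). The macrophage or monocyte marker sum given above was lower in both KO libraries too. As a share of gene counts, KO 2 (2.38%) lay close to WT 1 (2.40%). The part of this sum in these differences was not tested. KO 1 was the lowest library for 7 of these 8 genes and under 0.5 times KO 2 for 4 of them. The 9 other receptors for dying cells had a median of -0.48 and the 8 other scavenger receptors one of -0.16, with Tyro3 and Scarf2 counted in them. The 6 genes of the engulfment machinery had a median of -0.27, the 4 other bridging and eat-me genes one of 0.19, and the 3 genes of restraint and shedding one of -0.08.

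The gene of each role with the highest mean CPM, which is not corrected for length, is given with its values. Cd68, a lysosomal glycoprotein of macrophages, had 3367 and 1873 CPM in WT and 494 and 1572 CPM in KO (log2 fold change -1.34, edgeR adjusted p = 0.412). Trem2, a lipid-sensing receptor of macrophages, had 459 and 202 CPM in WT and 35.2 and 126 CPM in KO (log2 fold change -2.04, edgeR adjusted p = 0.240). Both were lower in both KO libraries and lowest in KO 1. Cd68 moved to -0.74 without KO 1 and to -2.41 without KO 2, where it passed the threshold (edgeR adjusted p = 0.0271, range 0.0271 to 0.9999 over the alternatives). Trem2 moved to -1.39 without KO 1, -1.34 without WT 1 and -3.23 without KO 2, where it passed as well (edgeR adjusted p = 0.0172). With all genes kept, low counts included, Trem2 also passed the threshold (edgeR adjusted p = 0.0111), and its adjusted p ranged from 0.00347 to 0.9999. Sirpa, which receives the restraining signal of Cd47, had a log2 fold change of -0.93, and Ucp2, a mitochondrial carrier, one of -0.95. Rac1, a GTPase of engulfment, had -0.46, and Calr, an eat-me protein that Lrp1 recognizes, had -0.12, with edgeR adjusted p-values of 0.480, 0.456, 0.694 and 0.937 in this order of naming. Without KO 1 and without KO 2 the log2 fold change was -0.44 and -1.67 for Sirpa, -0.58 and -1.46 for Ucp2 and -0.30 and -0.64 for Rac1, and of these Sirpa passed the threshold without KO 2 (edgeR adjusted p = 0.0376, range 0.0376 to 0.9999 over the alternatives). Per kilobase the most abundant engulfment gene was Rhog, a GTPase related to Rac1, which was added after its values were seen. Rhog had 732 and 593 CPM in WT and 179 and 336 CPM in KO, without overlap (log2 fold change -1.36, SE 0.51, edgeR adjusted p = 0.288, range 0.0273 to 0.9999 over the alternatives). Rac1 and Calr turned to 0.22 and 0.58 with macrophage or monocyte counts as the scale, and Calr to 0.20 with library totals only. With macrophage or monocyte counts as the scale, Cd68 was -0.78, Trem2 -1.50, Sirpa -0.31 and Ucp2 -0.30, where the median of all genes was 0.75.

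**Figure D4:**
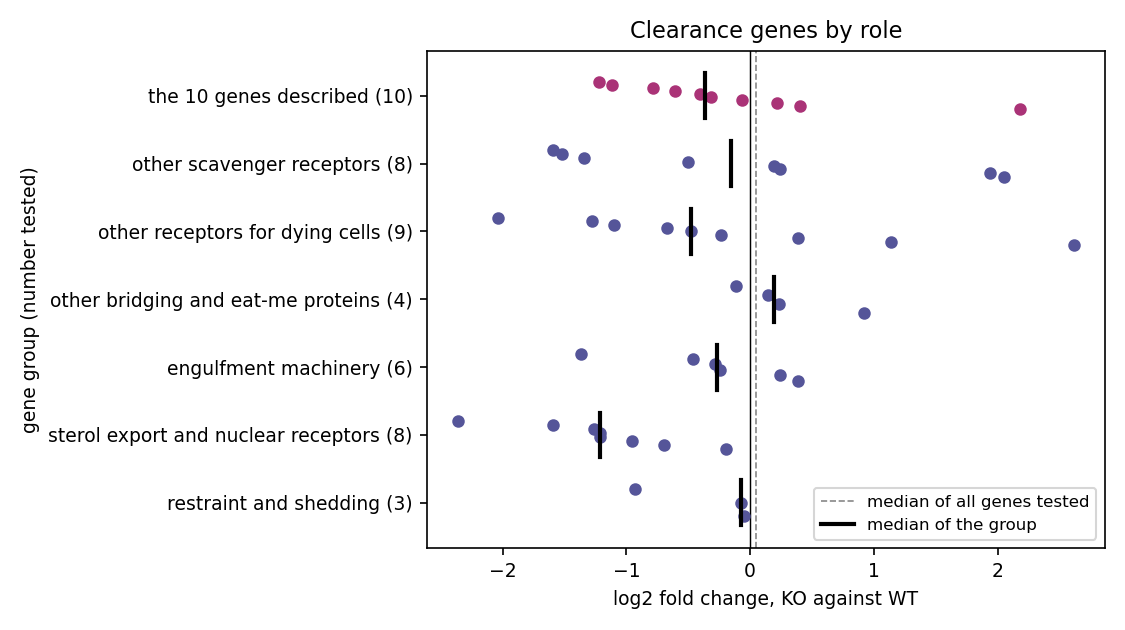
Log2 fold change of KO against WT for the 10 genes and for 38 other clearance genes by role, 1 point for each gene tested, with the median of each group (bar) and that of all genes (dashed line at 0.05). The 8 genes listed under sterol export and nuclear receptors, with Ucp2 counted in them, all lie below 0, and no gene shown passed the threshold.

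Genes with the most similar pattern over the 4 libraries were found for the 3 most abundant members by CPM, as the smallest distance between log2 CPM values centered on each gene's mean, among 6223 genes with a mean of at least 20 CPM. For Lrp1 they were Dennd4b, P2rx7 and Pias4, at distances of 0.029, 0.059 and 0.090, where the median gene was at 1.46. For Stab1 they were Trim47, Kcnk13 and Cbr2, at 0.27, 0.35 and 0.46, where the median gene was at 2.61. For Axl they were Cyth4, Btbd2 and Fuca2, at 0.085, 0.098 and 0.12, where the median gene was at 1.08. The nearest neighbors of Stab1 were thus further away than those of Lrp1 and Axl. With 4 libraries such distances describe these libraries only.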

How the data were processed

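RNA was measured in 4 libraries, 2 labeled WT and 2 labeled KO, grouped by their titles. The authors deposited raw read counts per gene symbol, made per the submitters' processing notes with HISAT2 2.1.0 and HTSeq 0.11.0 on mm10; the annotation and the strand setting are not given in the sources used here. Rows that name no gene, which held 71.2% to 79.5% of reads, were left out. Coordinates, exon lengths and overlaps came from GENCODE on GRCm38.

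Testing was done with edgeR 4.0.16 under R 4.3.3: filterByExpr (at least 10 counts in 2 libraries after scaling, 15 in total), TMM factors, and the quasi-likelihood F test of KO against WT, two-sided, with Benjamini-Hochberg adjustment over all genes tested and a threshold of 0.05. Fold changes used a prior count of 0.125, SE is the log2 fold change divided by the square root of F, and CPM was scaled by TMM. A count of 3 corresponded to 0.521 to 0.897 CPM. Alternatives were other scalings and filters, DESeq2 1.42.0, a larger prior count, each library left out and a replicate block. A crossed block was added after seeing the data.

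The members and lists were chosen with earlier results of these data known. Named were all 10 members, the most abundant gene of each role of the pathway list, any pathway gene past the threshold, and the 3 genes closest in pattern to each of the 3 most abundant members. Genes called only under an alternative, Rhog, Tyro3 and Pros1 were named after their values were seen.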

Additional observations from a re-analysis of the deposited data

How the results depend on the processing

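The number of genes called among all genes tested, 68 in edgeR, became 136 with library totals only, 1075 with macrophage or monocyte counts as the scale, 583 without a filter, 416 in DESeq2 and 215 with the replicate block, and ranged from 102 to 818 with each library left out. The number among the 10 members, 0, became 1 (Mfge8) without a filter and with macrophage or monocyte counts as the scale, and ranged from 0 to 3 with each library left out. The number among the other clearance genes, 0, became 3 without a filter (Nr1h3, Trem2 and Scara5), 3 in DESeq2 and 1 (Nr1h3) with the replicate block, and ranged from 0 to 12 with each library left out, where 12 was reached without KO 2 and 1 (Nr1h3) without WT 2. The cause of these shifts was not tested.

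The numbers in the titles mark no stated pairing. The correlation of WT 1 minus WT 2 with KO 1 minus KO 2 over genes was -0.18, and a crossed replicate block, chosen after seeing the data, gave 647 calls over all genes, 1 among the members and 4 among the other clearance genes.

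Of 140 values of the members under alternatives, 120 kept direction and side of the threshold, 14 turned direction and 6 passed the threshold. With each library left out, the log2 fold change ranged from -4.19 to 1.31 for Marco, -1.19 to 0.92 for Cd36, -1.10 to 0.056 for Scarb1, -1.74 to 0.020 for Mertk, -0.92 to 0.11 for Axl, -2.29 to 0.77 for Gas6, -0.28 to 0.027 for Calr, 0.12 to 0.64 for Msr1 and 1.57 to 2.85 for Mfge8. The ends for Marco rest on KO 1 alone, at 1 count, and on WT 1 alone, at 3 counts. Both are at or under the floor of 3 counts, so neither end is an exact fold. Cd36 was -0.12 with the replicate block and -0.12 with the crossed replicate block. With macrophage or monocyte counts as the scale, Scarb1 was 0.26, Axl 0.34, Gas6 0.52, Calr 0.58 and Rac1 0.22, and with library totals only Gas6 was 0.20 and Calr 0.20; these scales moved the median of all genes by 0.70 and 0.33. Under the alternatives run, Msr1 and Mfge8 stayed above 0 and Lrp1 and Stab1 below 0. Depth limits Marco most, with 1 to 28 counts a library, and Mfge8, with 13 and 24 counts in WT.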

Other observations

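The remaining genes of the TAM system were examined after their values were seen. Tyro3, the third TAM receptor, had 2 counts in each WT library, and 22 and 16 in KO 1 and KO 2, which is 0.598 and 0.493 CPM against 4.16 and 2.78 CPM. Both WT counts were under the floor of 3 counts and the gene passed the filter only through the KO libraries, so no fold change is given, and it was not past the threshold in edgeR. Pros1, which encodes protein S, a ligand of Mertk and Tyro3, had 23.6 and 37.2 CPM in WT and 35.2 and 32.1 CPM in KO. The groups overlapped for Pros1, with a log2 fold change of 0.14 (edgeR adjusted p = 0.916), whereas the other ligand, Gas6, had spanned 13.6 to 114 CPM in the libraries labeled KO.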
